A study of Mus musculus with 40 samples.

Results

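The muscle of mice with a low tumor mass (LT) was compared with that of mice injected with saline (PBS). Samples were taken into the comparison by their labelled condition, which gave 8 LT and 8 PBS libraries out of 40 in the series, each made from 1 gastrocnemius, a large muscle of the calf, of a female C57BL6/J mouse. LT mice had been injected at 8 weeks of age with Lewis lung carcinoma (LLC) cells, a transplantable mouse lung tumor line, were taken 3 to 4 weeks later at 11 to 12 weeks of age, and carried tumors of at most 1.2 g. PBS mice were injected with phosphate buffered saline at the same age, carried no tumor and were 12 weeks old. 3 other groups of 8 mice served for comparison. The 1wk group was taken 1 week after injection, at 9 weeks of age, the 2wk group 2 weeks after, at 10 weeks of age, and the HT mice had tumors of at least 2 g at 11 to 12 weeks of age. LT and HT mice were assigned after harvest by the mass of the tumor, so the split was not a treatment, and the sources used here do not give the week of harvest for single LT mice. The sources also differ on whether cells were placed in 1 flank or on both sides.

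Muscle wasting in cancer is accompanied by signals from the tumor and the immune system, among which are the interferons. Interferon gamma binds a receptor of the chains Ifngr1 and Ifngr2, and the kinases Jak1 and Jak2 activate a transcription factor that binds gamma-activated sites near genes such as Irf1 and those of the guanylate-binding proteins. Type I interferons act through a complex that holds Stat2 and Irf9 and binds another element, the interferon-stimulated response element. Interferon gamma is made by T and NK cells, and its targets include the peptide-loading and immunoproteasome genes of antigen presentation.

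Values are normalised counts, that is estimated reads per gene divided by a size factor of the library. Log2 fold changes are differences of group means of log2(value + 1), and a gene was called where the p of the limma linear model, adjusted by Benjamini-Hochberg across 12573 genes, was under 0.05. LT libraries held 3.49 to 7.24 M reads and PBS libraries 19.3 to 28.7 M, so that 1 read was worth 1.68 to 3.37 normalised counts in LT and 0.422 to 0.651 in PBS. Depth ran along the groups, and its part in a difference cannot be told apart from that of the tumor. All 13 measured genes of skeletal muscle identity were present and 0 were called, against 0.636% of all genes. Their summed level was 2392000 to 2853000 in LT and 2130000 to 3397000 in PBS. Of 11 epithelial and tumor markers 0 were in the table, and of 28 lymphocyte markers 1. In RNA of whole muscle, fewer cells of a type and less RNA per cell cannot be told apart.

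LT muscle differed from PBS muscle in few genes, and most of those that were lower belonged to the interferon response. Of 12573 genes 80 were called (0.636%), 31 of them higher in LT (0.247%) and 49 lower in LT (0.39%). The median log2 fold change of all genes was -0.00246. The lower genes had the larger differences, with a median size of 1.05 on the log2 scale against 0.62 in the higher genes, and 27 lower but 6 higher genes differed at least 2-fold between the group means. Of the 49 lower genes 28 stood in 1 of 3 lists of interferon-induced genes, as did 1 of the 31 higher genes. These lists held 91 measured genes, of which 30.8% were called lower, against 0.39% of all genes, and most members were not called. The lists were drawn up with earlier results of these data known, so their direction is not independent evidence. At an unadjusted p under 0.05 there were 714 higher genes (5.68%) and 828 lower genes (6.59%). The count of called genes rested on single mice, since it was 44, 46 and 47 without PBS mouse C5, C9 or C8, 50 without LT mouse C39 or LT mouse C56, and 144 without PBS mouse C4. It was also 288 with a weight for each library and 51 after all libraries had been thinned to the depth of the shallowest.

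**Figure D1:**
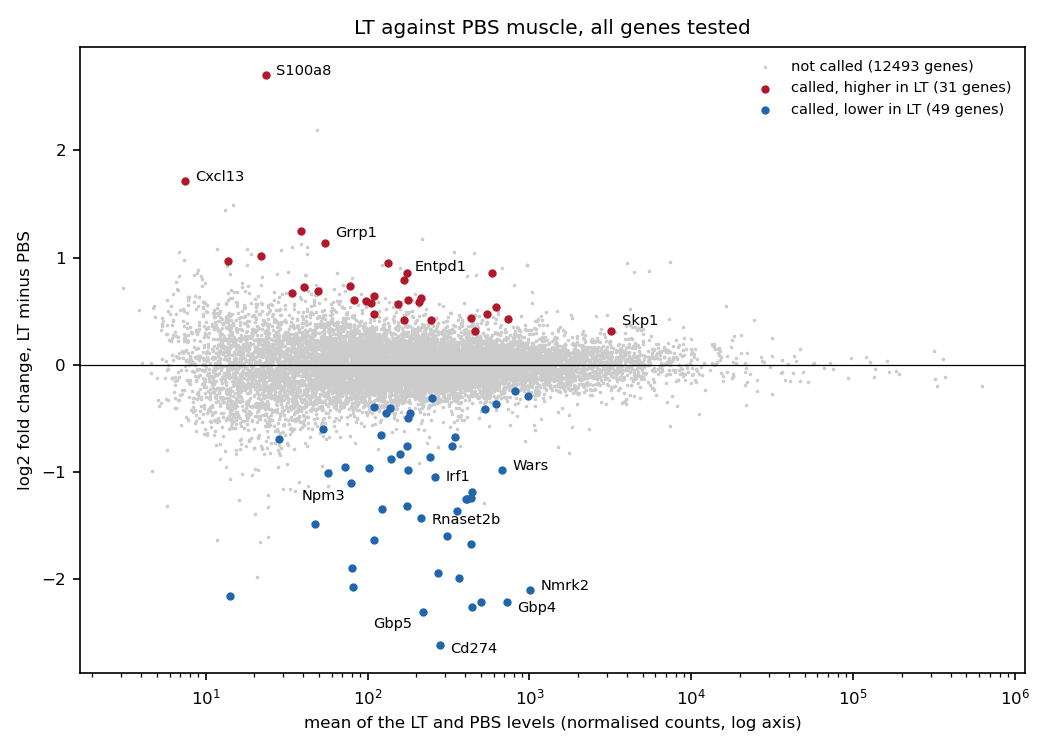
The log2 fold change of LT minus PBS muscle (vertical axis) is plotted against the mean of the LT and PBS levels (horizontal log axis, normalised counts) for 12573 genes, with the 31 called higher genes in red, the 49 called lower genes in blue and the others in grey. The called lower genes reach -2.61 (Cd274), and the called higher genes reach 2.7 (S100a8) with most below 1.

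Of the gene lists, the interferon-inducible GTPases had the lowest median. They are proteins that act in the defence of cells against intracellular pathogens. Of 16 measured members 13 fell in LT and 0 rose, the list median was -1.63 against -0.00246 over all genes, and all 16 fold changes were negative (-2.30 to -0.52). The summed level of the list was 1991 to 7873 in LT mice (median 2534) and 4433 to 12200 in PBS mice (median 8853). Most members belong to the guanylate-binding proteins of chromosomes 3 and 5 or to the immunity-related GTPases of chromosomes 11 and 18.

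Gbp5, a guanylate-binding protein with a role in inflammasome assembly (chromosome 3, 142202695 to 142228105, mm39), had its lowest, median and highest value at 36.0, 60.5 and 192 in LT and at 154, 327 and 583 in PBS. The groups overlapped through 1 LT mouse (C44) that lay above the lowest 1 of the PBS mice (C11). The log2 fold change was -2.30 ± 0.37 (SE, n = 8 each, adjusted p = 0.000604). Gbp4 (chromosome 5, 105263633 to 105287452) was at 138, 220 and 868 in LT against 572, 1190 and 1660 in PBS, again with an overlap through C44, and fell by 2.21 on the log2 scale (adjusted p = 0.000778). Gbp2 was at 75.4, 120 and 557 in LT and at 217, 640 and 1594 in PBS (log2 fold change -2.21, adjusted p = 0.00122), where C44 lay inside the wide PBS range. The other called guanylate-binding proteins were Gbp3, Gbp7, Gbp6 and Gbp9, whose LT means were 28.8%, 33.3%, 37.1% and 43.1% of the PBS means. Gbp10 had a log2 fold change of -0.94 but varied widely among mice (95% interval -2.15 to 0.26, adjusted p = 0.545).

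Of the immunity-related GTPases, which act on the vacuoles of intracellular parasites in the mouse, Tgtp2, Tgtp1, Ifi47, Iigp1 and Igtp fell, with LT means of 31.4%, 29.9%, 32.9%, 35.5% and 47.6% of the PBS means. Ifi47 was at 6.63, 26.7 and 145 in LT and at 41.6, 127 and 174 in PBS (log2 fold change -1.90, adjusted p = 0.00637). Tgtp1 and Tgtp2 are near-identical copies between which reads may have been divided. Irgm1 and Irgm2, regulators of the other immunity-related GTPases, had log2 fold changes of -0.52 each without a call (adjusted p = 0.099 and 0.289). Gvin1, a very large inducible GTPase, was at 104, 232 and 501 in LT and at 408, 535 and 750 in PBS (log2 fold change -1.25, adjusted p = 0.00918), and Gm4070, also called, shares its coordinates and its reads. The Igtp call was lost without LT mouse C39, C51, C56 or C57 or PBS mouse C2, C5, C8 or C9 (adjusted p 0.0513 to 0.0919), the Tgtp1 call without LT mouse C39, C51, C53 or C56 or PBS mouse C2, C5, C8 or C9 (0.0524 to 0.0792) and the Gbp6 call without PBS mouse C5 or C9 (0.0725 and 0.0832).

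**Figure D2:**
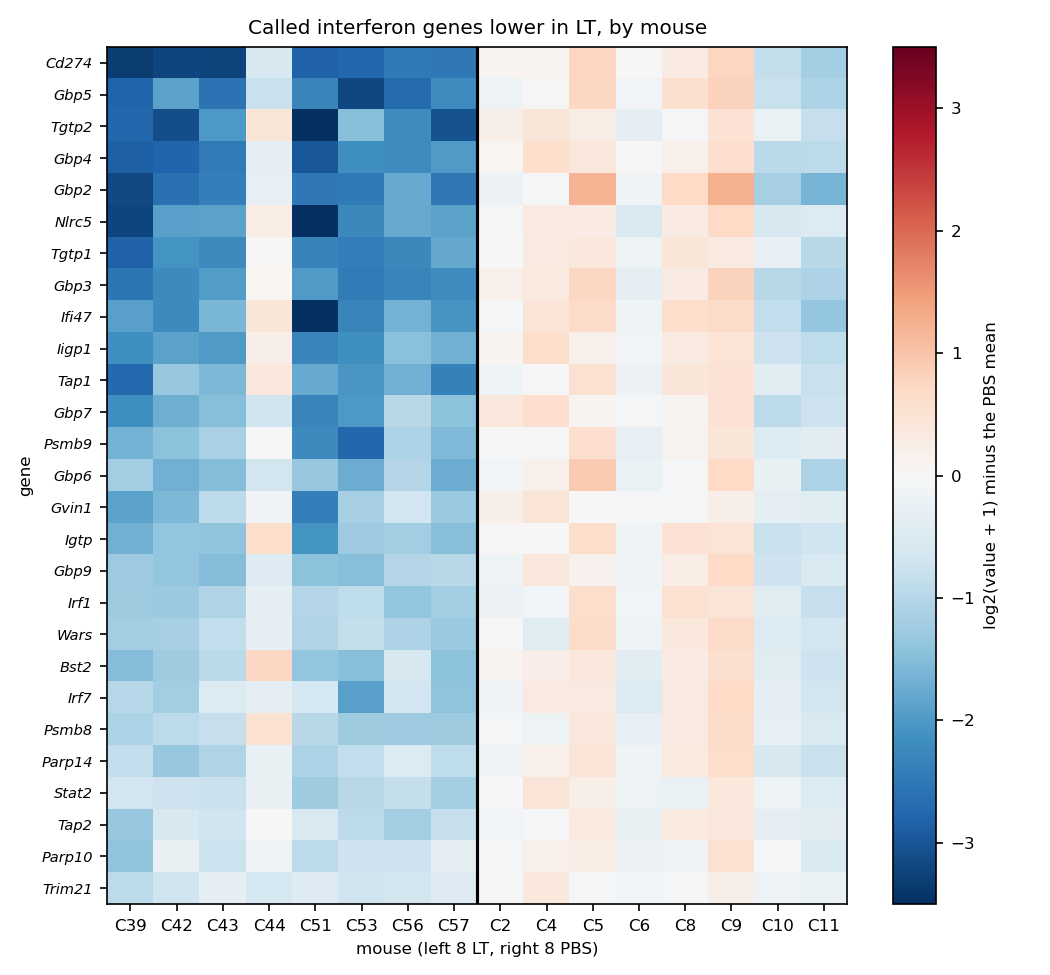
Each cell gives the log2(value + 1) of a gene in a mouse minus the PBS mean of that gene, for 27 of the 28 called interferon genes (rows) in 8 LT mice (left) and 8 PBS mice (right), with blue for lower and red for higher. The LT columns are blue apart from mouse C44, and the PBS columns of C10 and C11 are the bluest of their group.

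The called lower interferon genes were read for 2 sequence elements in their promoters, because both elements are the known landing sites of factors that interferons activate. The windows were those of RefSeq for GRCm38.p6, with 250 bases before and 50 after the start of transcription, and 17 of the 28 genes had one. The gamma-activated site was taken as TTCNNNGAA, which reads alike on both strands, and the core of the interferon-stimulated response element as GAAA, any 2 bases and GAAA again on either strand, where the same window can hold both. The first stood in 8 of the 17 genes (47.1%) and the second in 10 (58.8%), against 8.21% and 3.59% of the 9993 genes of the table with a window. Among the 17 matched genes that were lower but in no interferon list 0 held the first and 1 (Apol10b) the second, and among 21 matched higher genes 3 (Steap4, Medag and Ctla2a) held the first and 0 the second. Such a match is a description of letters and not of a bound site. The lists hold genes known to be induced by interferon, in which these elements would be frequent whether or not the genes fell in LT. Uncalled members of the lists were not counted, so the shares say nothing about the fall itself. The 250 bases before the start of 4 called genes are shown because they hold the elements in different combinations, with the matches in capitals.
Gbp5, plus strand, chr3:142496684-142496933: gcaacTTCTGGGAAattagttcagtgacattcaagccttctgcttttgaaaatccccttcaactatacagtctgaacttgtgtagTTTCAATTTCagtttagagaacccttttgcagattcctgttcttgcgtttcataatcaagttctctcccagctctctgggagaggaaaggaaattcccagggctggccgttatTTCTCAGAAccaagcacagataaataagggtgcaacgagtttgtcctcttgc
Gbp2, plus strand, chr3:142620413-142620662: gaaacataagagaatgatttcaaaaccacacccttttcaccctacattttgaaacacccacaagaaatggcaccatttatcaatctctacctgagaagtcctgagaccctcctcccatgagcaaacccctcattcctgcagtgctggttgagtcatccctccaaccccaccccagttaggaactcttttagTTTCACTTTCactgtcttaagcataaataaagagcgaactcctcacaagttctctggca
Igtp, plus strand, chr11:58199306-58199555: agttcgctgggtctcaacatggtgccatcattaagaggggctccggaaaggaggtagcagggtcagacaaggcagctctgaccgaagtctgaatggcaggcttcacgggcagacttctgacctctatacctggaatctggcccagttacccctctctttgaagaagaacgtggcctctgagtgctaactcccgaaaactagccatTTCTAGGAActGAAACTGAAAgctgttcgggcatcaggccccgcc
Irf1, plus strand, chr11:53769764-53770013: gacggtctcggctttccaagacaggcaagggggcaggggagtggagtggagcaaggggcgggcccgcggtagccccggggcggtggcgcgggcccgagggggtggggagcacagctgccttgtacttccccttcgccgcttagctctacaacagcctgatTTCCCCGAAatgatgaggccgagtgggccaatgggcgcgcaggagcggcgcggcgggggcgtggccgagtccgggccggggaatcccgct
Gbp5 held a gamma-activated site 245 and 52 bases before the start and a response element core at 165 bases. Gbp2 held only the core, at 59 bases. In Igtp a gamma-activated site at 45 bases stood beside a core at 34 bases. Irf1, itself a transcription factor of the response, held a gamma-activated site at 90 bases in this window, which is 1 of 2 listed for the gene.

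Regulators of the interferon gamma response and genes of antigen presentation followed the GTPases in part. Of 36 measured members of this list 9 fell and 1 rose, and the list median was -0.25. Cd274, which encodes the inhibitory ligand PD-L1 (chromosome 19, 29344838 to 29365494), was at 41.9, 61.3 and 295 in LT and at 189, 463 and 736 in PBS. 7 LT mice lay below every PBS mouse and C44 lay among the lower PBS mice. Its log2 fold change of -2.61 ± 0.39 (SE, adjusted p = 0.000604) was the lowest of the called genes. Nlrc5, the transactivator of MHC class I genes, was at 6.63, 30.9 and 141 in LT and at 79.3, 129 and 191 in PBS (log2 fold change -2.08, adjusted p = 0.00136), with overlap through C44 alone. Irf1 was at 128, 155 and 273 in LT and at 193, 316 and 515 in PBS (-1.05, adjusted p = 0.00435).

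The genes that make and carry peptides for MHC class I also fell. These were the immunoproteasome subunits Psmb9 and Psmb8 (log2 fold changes -1.48 and -0.88, adjusted p = 0.0053 and 0.0313) and the peptide transporter chains Tap1 and Tap2 (-1.64 and -0.75, adjusted p = 0.00359 and 0.0238). The third inducible subunit, Psmb10, and the loading factor Tapbp had -0.44 and -0.36 without a call (adjusted p = 0.107 and 0.0535). Wars, a tRNA synthetase that interferon gamma induces, averaged 442 ± 104 in LT and 907 ± 325 in PBS (SD, n = 8 each, adjusted p = 0.000604). The presenting molecules themselves were not called. H2-K1, H2-D1 and B2m each had a log2 fold change of -0.10, with 95% intervals of -0.41 to 0.20, -0.38 to 0.18 and -0.40 to 0.19, and H2-K1 was at 757, 823 and 2134 in LT and at 735, 1043 and 1241 in PBS. The MHC class II genes of antigen-presenting cells leaned the other way without a call, at 0.57 for H2-Aa and H2-Eb1, 0.50 for Cd74 and 0.48 for H2-Ab1 (adjusted p 0.213 to 0.34). The Psmb8 call was kept only when the mouse left out was LT mouse C43 or C44 or PBS mouse C4, C6, C10 or C11, and was otherwise lost (adjusted p up to 0.101), and the Tap2 call was lost without LT mouse C39 or C56 or PBS mouse C5, C8 or C9 (up to 0.0792). Both calls were also lost in thinned libraries (0.0603 for Psmb8 and 0.169 for Tap2), and that of Psmb8 with only 2 groups in the fit (0.0723).

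Ifngr1, the ligand-binding chain of the interferon gamma receptor, was the member that rose. It was at 425, 521 and 640 in LT and at 352, 404 and 484 in PBS (log2 fold change 0.32 ± 0.08, adjusted p = 0.0391). All 8 LT mice lay above the PBS mean, with overlap of the ranges. The second chain Ifngr2 and the kinases Jak1 and Jak2 had log2 fold changes of -0.05, -0.02 and 0.11 and were not called. The call of Ifngr1 was kept only without LT mouse C43, C51 or C53 or PBS mouse C4, C10 or C11 and was otherwise lost (adjusted p 0.063 to 0.122), and it was lost with only 2 groups in the fit (0.129) and in thinned libraries (0.0744).

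The targets of type I interferon were lower to a smaller extent. Of 39 measured members 6 fell and 0 rose, with a median of -0.44. Stat2, a transcription factor of that pathway, was at 82.9, 113 and 165 in LT and at 142, 189 and 272 in PBS (log2 fold change -0.83, adjusted p = 0.00432). Trim21, an intracellular antibody receptor, was at 33.5, 41.2 and 50.7 in LT and at 54.6, 61.9 and 82.8 in PBS, so that no LT mouse reached the PBS range (-0.60, adjusted p = 0.0174). Bst2 (tetherin), Irf7, Parp14 and Parp10 were the other members called, at -0.98, -0.95, -0.86 and -0.65. The most used markers of a type I response were lower on average without passing the test, with -0.75 for Isg15 (adjusted p = 0.197), -0.79 for Ifit3 (0.23) and -0.73 for Rsad2 (0.162). 4 called lower genes outside the lists are known as interferon-induced and were grouped after their values were seen, Tnfsf10 (the death ligand TRAIL, -1.31), Apol10b (an apolipoprotein L gene, -1.35), Rnf213 (a large ubiquitin ligase, -0.76) and Uba7 (the activating enzyme of Isg15, -0.96). Of these calls Parp10 was lost without any mouse but LT C42, C44 or C57 or PBS C11, Bst2 without LT C39, C51, C53 or C57 or PBS C5, C8 or C9, Irf7 without LT C39, C42, C53 or C57 or PBS C5, C8 or C9, Parp14 without PBS C5, C8 or C9, Uba7 without LT C39 or PBS C5, C8 or C9, and Trim21 without LT C39 or PBS C9 (adjusted p up to 0.144, 0.0783, 0.0947, 0.0626, 0.0821 and 0.0571). In thinned libraries the calls of Trim21, Uba7, Parp10 and Irf7 were lost (adjusted p = 0.405, 0.164, 0.13 and 0.124), and with only 2 groups in the fit those of Bst2, Parp10 and Irf7 (0.102, 0.0863 and 0.0541).

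A single LT mouse stood apart from the other 7 in these genes. Mouse C44 had the highest LT value in 27 of the 28 called interferon genes and lay inside the PBS range in 13 of the 13 called GTPases. Igtp, for example, was at 848 in C44 and at 130 to 239 in the other 7 LT mice, against 324 to 853 in PBS mice. Without C44, 23 of the 28 genes did not overlap between 7 LT and 8 PBS mice, where 0.366% of all genes had 7 LT mice below 8 PBS mice. Among PBS mice the lowest value was that of C11 in 22 and of C10 in 6 of the 28 genes. Leaving C44 out moved the log2 fold change of Cd274 to -2.91 (adjusted p = 1.9e-05), that of Gbp4 to -2.48 (3.58e-05) and that of Igtp to -1.5 (0.000699). Without C44, Irgm1, Tapbp, Isg15 and Samhd1, which had no call with all 8 LT mice, passed the threshold (adjusted p = 0.0106, 0.0185, 0.0239 and 0.0383). The 28 genes were chosen as lower in LT, and C44 was set apart for its high values in them. Leaving it out therefore widens the difference by choice, and the values without C44 are a description and not separate evidence.

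The GTPase level was also set beside that of the other groups, mouse by mouse, as the log2 difference from the PBS mean, averaged over the 13 called GTPases. It was -0.94 to 0.61 in PBS mice (median 0.16), -2.81 to -1.87 in 1wk mice (median -2.36), -2.34 to 0.23 in 2wk mice (median -1.87), -2.44 to -0.12 in LT mice (median -1.94) and -2.73 to -1.88 in HT mice (median -2.45). 3 of the 2wk mice lay within the PBS range, as did C44 of the LT mice, and every 1wk and HT mouse lay below it. The 13 genes were chosen by the comparison of LT with PBS, and all groups are measured against the same PBS mice, so the values are a description.

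**Figure D3:**
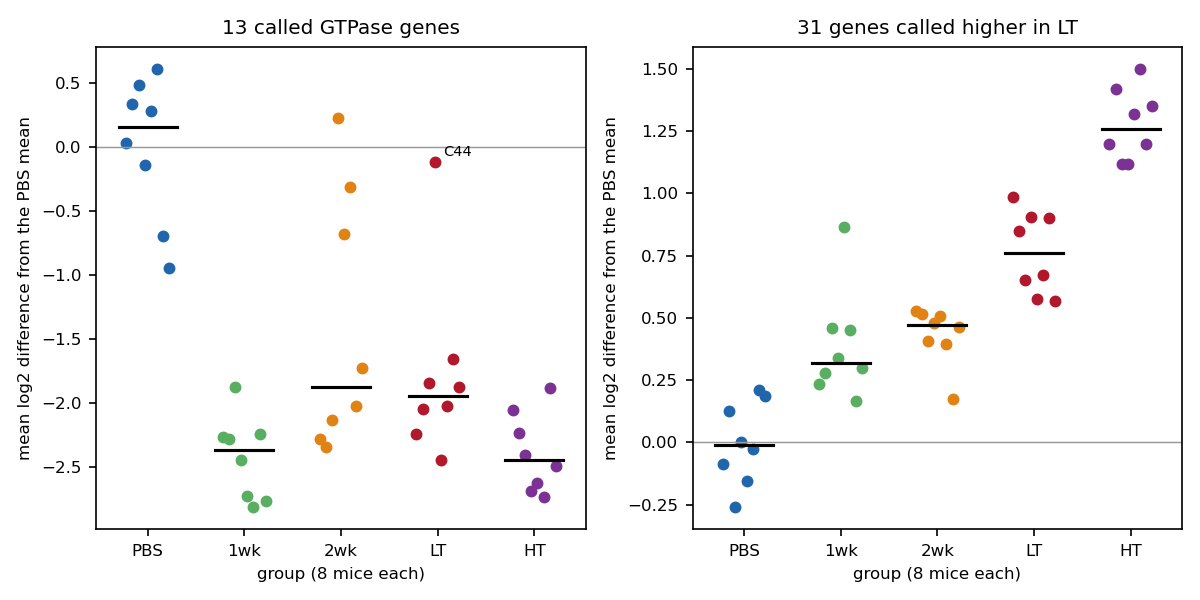
Each point is 1 mouse, with the mean log2 difference from the PBS mean over the 13 called GTPases (left) and over the 31 genes called higher in LT (right) for the PBS, 1wk, 2wk, LT and HT groups, and a bar at the group median. The GTPase medians of the 4 tumor-bearing groups are -2.36, -1.87, -1.94 and -2.45, and the medians of the 31 genes are 0.32, 0.47, 0.76 and 1.26. Both sets of genes were chosen by the comparison of LT with PBS.

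The lower genes outside the interferon lists were of varied function. Nmrk2 encodes a nicotinamide riboside kinase that makes NAD in muscle and heart (chromosome 10, 81034004 to 81037871). It was at 132, 421 and 603 in LT and at 649, 1642 and 2265 in PBS. No LT mouse reached the lowest PBS mouse, C11, and the log2 fold change was -2.10 ± 0.33 (SE, adjusted p = 0.000604). It was the only 1 of 32 measured genes of NAD, nucleotide and polyamine metabolism that fell, and Entpd1 was the only 1 that rose.

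Rnaset2b, a secreted ribonuclease gene, was at 61.2, 124 and 165 in LT and at 184, 307 and 426 in PBS, again without overlap (log2 fold change -1.43, adjusted p = 0.00101). Its copy Rnaset2a averaged 844 ± 113 in LT and 732 ± 85.7 in PBS and was not called (0.20, adjusted p = 0.318), and reads may have been divided between the copies, since the interval given for Rnaset2b reaches over the place of Rnaset2a. Npm3, a histone chaperone of the nucleolus, was at 16.1, 57.4 and 96.2 in LT and at 72.7, 103 and 124 in PBS (-1.10, adjusted p = 0.013). Its spread went with depth. Npm3 averaged 28.2 ± 10.5 in the 4 LT libraries with the fewest reads and 82.7 ± 10.0 in the 4 with the most (adjusted p = 0.000341), the only call of 12573 genes between these libraries. Its call between LT and PBS was lost with only 2 groups in the fit (adjusted p = 0.0937). At an unadjusted limma p under 0.05, 1044 genes (8.3%) differed between the 4 shallower and the 4 deeper LT libraries. Of these 8 were among the genes called between LT and PBS.

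Crtc1 and Pomt1 did not overlap between the groups either and differed by less. Crtc1, a coactivator of CREB, was at 138, 150 and 180 in LT and at 193, 211 and 235 in PBS (log2 fold change -0.45, adjusted p = 0.00526). Pomt1, which starts the sugar chain of dystroglycan in muscle, averaged 119 ± 14.7 in LT and 157 ± 10.3 in PBS (-0.40, adjusted p = 0.0187). With Nmrk2, Rnaset2b and Trim21 they were among the 6 called genes of the 17 (0.135% of all genes) in which all LT mice lay below all PBS mice. The Pomt1 call was lost without LT mouse C39 or C56 (adjusted p up to 0.0617) and in thinned libraries, where its log2 fold change was -0.14 (adjusted p = 0.718). The Crtc1 call was also lost in thinned libraries (adjusted p = 0.0718).

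The remaining 10 lower genes had small or imprecise differences. Il4i1b had the lowest fold change of these (-2.15) but LT values down to 0.56, under the worth of 1 read. Lrfn4, a neuronal adhesion gene, was at 13.3, 39.9 and 55.1 in LT and at 46.2, 75.7 and 111 in PBS (-1.01, adjusted p = 0.0361). The others ranged from -0.69 to -0.24 and were Srrd, Itfg2, Pigo (synthesis of GPI anchors), Lrrc14, Sbf1 (a myotubularin-related protein), Scap (the escort of the sterol factor SREBP), Ddx39b (an RNA helicase of splicing and export) and Gps1 (a subunit of the COP9 signalosome). Each of these 10 calls was lost without some of the mice. For Sbf1 these were PBS mice C5 and C8, for Ddx39b LT mouse C56 and PBS mice C5 and C8, for Il4i1b LT mice C39, C51, C53 and C56 and PBS mice C5, C6 and C10, and for the other 7 at least 9 of the 16 mice, with PBS mice C5, C8 and C9 among them for every gene (adjusted p up to 0.155). In thinned libraries all of these calls but that of Ddx39b were lost (adjusted p up to 0.51 for Scap).

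Among the genes that rose, the neutrophil gene S100a8 had the largest fold change, at a low level. S100a8, a chain of calprotectin that neutrophils store (chromosome 3, 90576378 to 90577341), was at 6.24, 35.5 and 126 in LT and at 1.95, 3.76 and 7.90 in PBS. 6 LT mice exceeded every PBS mouse and the other 2, C51 and C57, lay within the PBS range. The log2 fold change was 2.7 ± 0.54 (SE, adjusted p = 0.00563), from 2 to 57 reads a library in LT and 3 to 13 in PBS. The call was lost with voom (adjusted p = 0.128). Its partner S100a9 was at 3.12, 57.6 and 293 in LT and at 6.5, 10.0 and 15.8 in PBS, where 7 LT mice exceeded every PBS mouse and C57 lay below all of them (2.19, adjusted p = 0.0676). The highest LT value of both genes was that of C44.

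Only 6 of 28 listed neutrophil markers were measured. Of these 1 rose, all 6 fold changes were positive and the list median was 1.47. The summed level was 53 to 597 in LT (median 183) and 30.8 to 65.7 in PBS (median 55.8). Csf3r, the receptor of the granulocyte growth factor G-CSF, had 1.5 (adjusted p = 0.137), and Slfn4, Mmp9 and Lcn2 had 1.44, 0.75 and 0.46 without a call. Of 32 macrophage and monocyte markers 0 were called, against 0.636% of all genes. Their median was 0.27 and their summed level was 2756 to 5372 in LT and 1976 to 4445 in PBS. Cxcl13, a chemokine that attracts B cells, was at 3.32, 8.30 and 25 in LT and at 1.05, 1.75 and 7.49 in PBS (log2 fold change 1.71, adjusted p = 0.0465). These values came from only 1 to 14 reads a library in LT and 2 to 12 in PBS. The Cxcl13 call was kept only without LT mouse C43, C51, C53 or C56 or PBS mouse C10 (otherwise adjusted p 0.0534 to 0.124). It was also lost with a pseudocount of 5, 2 groups in the fit, voom and thinned libraries (0.0756 to 0.375).

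Several of the genes that rose are known from the endothelium of blood vessels, and their folds were smaller. Entpd1, the ectonucleotidase CD39 of endothelium and leukocytes (chromosome 19, 40600810 to 40730046), was at 156, 216 and 273 in LT and at 84.6, 118 and 172 in PBS. 7 LT mice exceeded every PBS mouse (log2 fold change 0.79 ± 0.14, adjusted p = 0.00122). Ctla2a, an inhibitor of cysteine proteases, was at 135, 155 and 256 in LT and at 66.7, 78.3 and 164 in PBS (0.95, adjusted p = 0.00936), with 3 LT mice above the PBS range. Scarb1, the receptor of high-density lipoprotein, was at 169, 277 and 299 in LT and at 128, 160 and 223 in PBS (0.62, adjusted p = 0.00532). Procr, the endothelial receptor of protein C, and Pecam1, an adhesion molecule of endothelial junctions, had log2 fold changes of 0.57 and 0.43 (adjusted p = 0.0472 and 0.049).

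Over the 27 measured endothelial genes 1 rose and 0 fell (median 0.22), and over 15 genes of activated endothelium 2 rose and 0 fell (median 0.26). The endothelial sum was 15430 to 25430 in LT and 13800 to 24330 in PBS. Cdh5, a defining junction gene of the endothelium, was not called (0.25, adjusted p = 0.411), nor were the adhesion gene Selp (0.70, 0.342) and the venular chemokine receptor Ackr1 (0.67, 0.0892). The Procr call was kept only without LT mouse C43 or PBS mouse C4, C10 or C11 and the Pecam1 call only without LT mouse C43, C44 or C57 or PBS mouse C10 or C11 (otherwise adjusted p up to 0.144 for each). Both calls were lost with 2 groups in the fit, voom and thinned libraries (adjusted p 0.0508 to 0.0692 for Procr and 0.0555 to 0.164 for Pecam1).

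**Figure D4:**
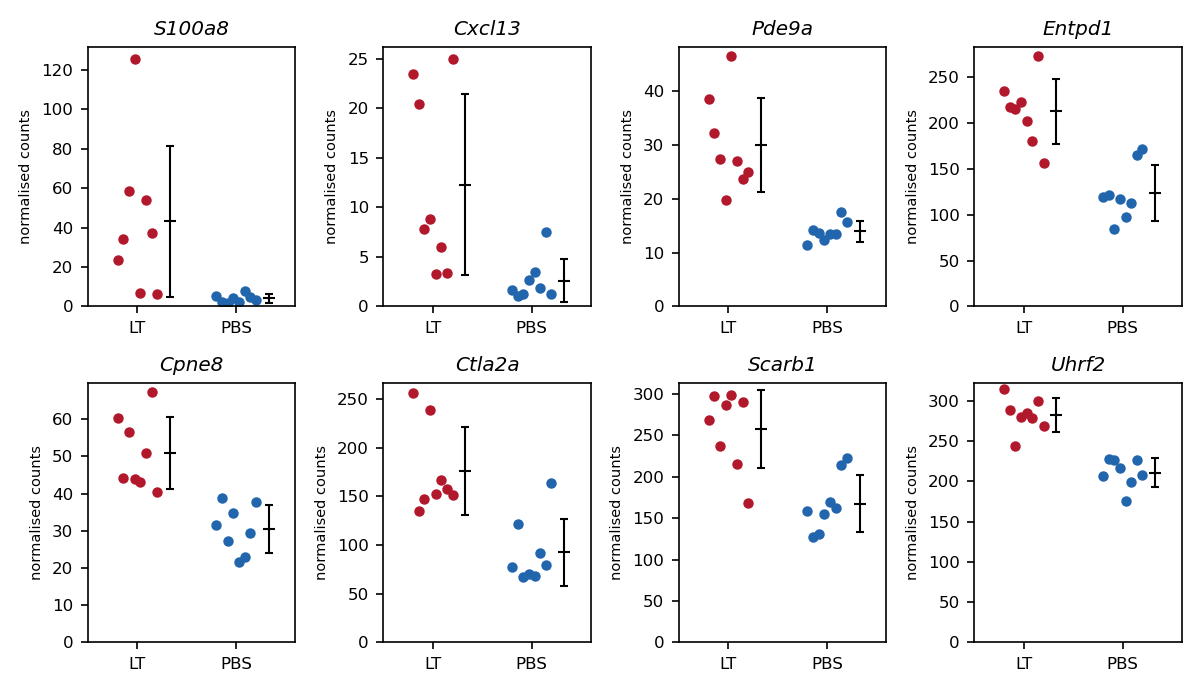
Normalised counts (vertical axis, from 0) of 8 called higher genes are plotted for 8 LT mice (red, left) and 8 PBS mice (blue, right), with the mean and SD beside the points. In Pde9a, Cpne8 and Uhrf2 all LT mice lie above all PBS mice, and S100a8 spreads from 6.24 to 126 in LT.

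3 of the higher genes had no overlap between the groups, among 12 such genes in all (0.0954%). Pde9a, a phosphodiesterase of cyclic GMP, was at 19.8, 27.1 and 46.4 in LT and at 11.4, 13.6 and 17.5 in PBS (log2 fold change 1.02, adjusted p = 0.0112), from at most 28 reads a library. Cpne8, a calcium-dependent membrane-binding protein, was at 40.6, 47.6 and 67.4 in LT and at 21.6, 30.5 and 38.8 in PBS (0.73, adjusted p = 0.00365). Uhrf2, a ubiquitin ligase that binds modified DNA, was at 244, 282 and 315 in LT and at 175, 212 and 228 in PBS (0.42, adjusted p = 0.00142). The Pde9a call was lost in thinned libraries (adjusted p = 0.235).

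The other higher genes had varied roles. Gda, a guanine deaminase, was at 159, 232 and 310 in LT and at 102, 120 and 165 in PBS (log2 fold change 0.86, adjusted p = 0.00251), with 6 LT mice above the PBS range. Steap4, a metalloreductase of inflammation, averaged 504 ± 59.8 in LT and 372 ± 39.8 in PBS (0.44, adjusted p = 0.00514) and was the only called gene of 27 in the acute phase list. Skp1, the adaptor of the SCF ubiquitin ligases that include the muscle F-box protein Fbxo32, was at 2788, 3657 and 4053 in LT and at 2744, 2800 and 3094 in PBS (0.31, adjusted p = 0.0145), with mouse C43 alone in the PBS range. Grrp1 was at 37.4, 66.1 and 138 in LT and at 24.5, 32.6 and 46.9 in PBS (1.13, adjusted p = 0.00359).

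Signaling genes were also among them. Osmr, the receptor chain for oncostatin M, averaged 216 ± 51.7 in LT and 139 ± 22.4 in PBS (log2 fold change 0.61, adjusted p = 0.0472). Bmp4, a ligand of the bone morphogenetic proteins, averaged 100 ± 26.4 in LT and 64.3 ± 10.9 in PBS (0.61, adjusted p = 0.0192). Apod, a lipid-binding lipocalin, averaged 752 ± 188 in LT and 415 ± 114 in PBS (0.86, adjusted p = 0.0291), and Prkch, a protein kinase C, and Rnf125, a ubiquitin ligase, had 0.64 and 0.74 (adjusted p = 0.00753 and 0.00598). The Osmr call was kept only without LT mouse C43, C51 or C57 or PBS mouse C4, C10 or C11, the Bmp4 call was lost without LT mouse C56 or PBS mouse C2 or C5, and the Apod call was lost without LT mouse C39, C42, C44 or C56 or PBS mouse C5, C8 or C9 (adjusted p up to 0.133, 0.0748 and 0.0919). With only 2 groups in the fit the calls of Prkch, Bmp4 and Rnf125 were lost (adjusted p = 0.0786, 0.0816 and 0.0607), in thinned libraries those of Bmp4, Osmr and Rnf125 (0.204, 0.168 and 0.076), and with voom that of Osmr (0.0659).

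In the erythroid list 1 of 18 measured genes was called. The list median was 0.24 and its summed level was 31510 to 79840 in LT and 31200 to 55760 in PBS. The hemoglobin chains Hba-a1 and Hbb-bs had log2 fold changes of 0.87 and 0.95 and the heme synthesis gene Alas2 had 1.17, without a call (adjusted p = 0.23, 0.17 and 0.0892).

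10 further higher genes had log2 fold changes of 0.42 to 0.97. They were Cysltr1 (a leukotriene receptor, at 10.0 to 25.4 in LT and 5.62 to 14 in PBS), Dcbld1, Atp8b1 (a phospholipid flippase), Scn7a (a sodium channel of glia), Medag, Prex2 (an exchange factor of Rac), Rnase4, Ctnnal1, Rc3h1 (the RNA-binding protein Roquin) and Stx3 (a syntaxin). Each of these calls was lost without at least 5 of the 16 mice, among which LT mouse C56 or C57 was found for every gene (adjusted p up to 0.147). All but that of Medag were lost in 1 or more of the other settings (adjusted p up to 0.486 for Dcbld1).

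Muscle genes that atrophy and cachexia are known to move were not called in LT. Of 37 genes of muscle atrophy and FoxO signaling 0 were called, against 0.636% of all genes. At that share few lists of this size would hold a call. The list median was 0.11 and its summed level was 88120 to 127200 in LT and 86490 to 106400 in PBS. The ubiquitin ligase Fbxo32 (atrogin-1) was at 2874, 4868 and 8393 in LT and at 2160, 3370 and 4891 in PBS (log2 fold change 0.52, 95% interval -0.33 to 1.37), and Trim63 (MuRF1) had 0.35 (-0.57 to 1.27). The intervals include changes of more than 2-fold, so a change of that size is within the error of these data. Mstn (myostatin) had 0.37 (-0.06 to 0.80).

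The lists of muscle metabolism had medians near that of all genes and 0 called members, where 0.636% of all genes were called. The medians were 0.00014 over 36 subunits of respiratory complex I, 0.039 over 26 enzymes of the TCA cycle, 0.025 over 38 genes of fatty acid uptake and oxidation and 0.042 over 32 proteasome subunits. In the JAK-STAT list of 45 genes 1 rose (Osmr) and 2 fell, with a median of 0.093. Stat3 and the feedback inhibitor Socs3, which interleukin 6 signaling induces, had 0.09 and 0.56 (adjusted p = 0.827 and 0.545). In all, 28 of the 39 lists with a measured member held no called gene. At the share called over all genes, most lists of these sizes would hold none.

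**Figure D5:**
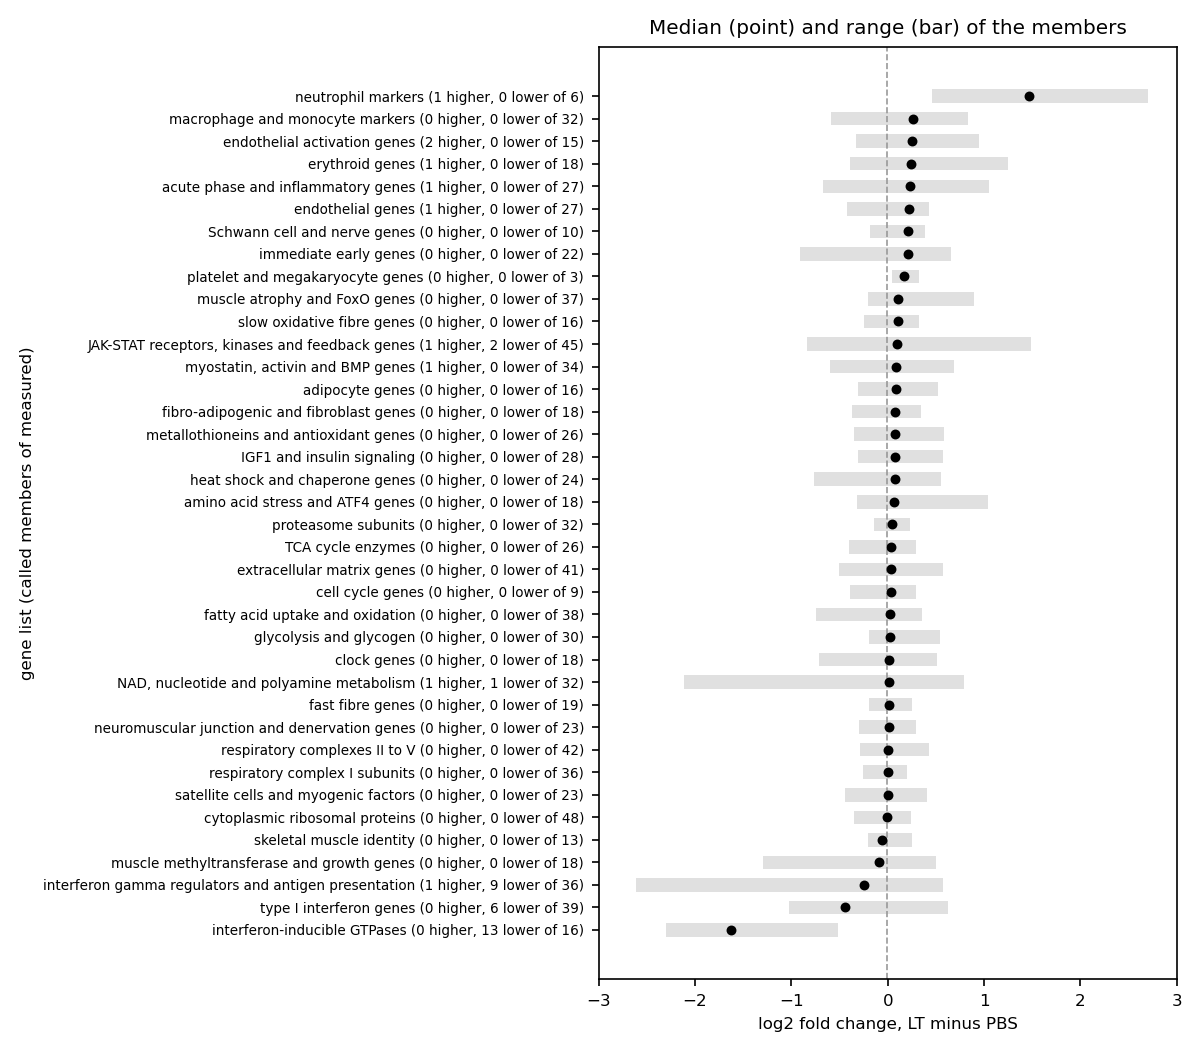
For each gene list drawn, the point gives the median and the bar the range of the log2 fold change of LT minus PBS (horizontal axis). The numbers of called and measured members stand beside its name, and a dashed line marks the median of all genes (-0.00246). The lymphocyte list and the epithelial and tumor list, with few or no measured members, are not drawn. The interferon-inducible GTPases (-1.63) and the neutrophil markers (1.47) lie at the ends, and the lists of muscle metabolism lie at the line.

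The comparison of HT with LT muscle asked how the same genes stood at the larger tumor mass, in libraries of like depth (4.16 to 7.76 M reads in HT and 3.49 to 7.24 M in LT). It shares the LT mice with the comparison above. Of 12573 genes 2564 were called (20.4%), 1250 higher in HT (9.94%) and 1314 lower in HT (10.5%). The count was 1486 without HT mouse C54, 1541 without HT mouse C55 and 3158 without HT mouse C37, and 524 with only these 2 groups in the fit.

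Several genes that had risen in LT were higher again in HT. S100a8 averaged 361 ± 227 in HT and 43.2 ± 38.4 in LT (log2 fold change of HT minus LT 3.33, adjusted p = 0.00013). Scarb1 averaged 464 ± 56.1 in HT and 258 ± 46.8 in LT (0.86, adjusted p = 2.59e-05), Gda 503 ± 112 in HT and 228 ± 51.2 in LT (1.14, adjusted p = 1.42e-05) and Entpd1 335 ± 41.1 in HT and 213 ± 35.2 in LT (0.66, adjusted p = 0.0011). Uhrf2, Steap4 and Bmp4 had differences of -0.02, 0.08 and -0.07 between HT and LT and were not called, and Stx3 was lower in HT (-0.36, adjusted p = 0.00926). As a mean over the 31 genes, HT mice lay at 1.12 to 1.5 and LT mice at 0.57 to 0.99 on the log2 scale above the PBS mean. The 31 genes were chosen by the comparison of LT with PBS, and both groups are measured against the same PBS mice, so these values are a description.

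For genes that had fallen in LT the differences between HT and LT went both ways. In 35 of the 49 genes the HT mean lay below the LT mean, which was not counted over all genes. Of the 49 genes 3 were called lower and 3 higher in HT, against 10.5% and 9.94% of all genes. Gbp5 averaged 54.9 ± 30.2 in HT and 76.0 ± 49.6 in LT (log2 fold change of HT minus LT -0.45, 95% interval -1.19 to 0.29), and Irf1 averaged 148 ± 21.4 in HT and 168 ± 46.1 in LT (-0.15, -0.56 to 0.26). Cd274 and Tgtp1 were lower in HT than in LT (-1.18 and -2.07, adjusted p = 0.0299 and 0.0025). Nmrk2 averaged 262 ± 146 in HT and 387 ± 149 in LT (-0.73, adjusted p = 0.108). Crtc1, Pomt1 and Npm3 were higher in HT than in LT (0.34, 0.25 and 0.77, adjusted p = 0.00635, 0.041 and 0.0195). Genes without a call between LT and PBS differed here as well, as Stat3 at 1403 ± 411 in HT and 701 ± 75.7 in LT (0.96, adjusted p = 1.24e-05) and Isg15 at 57.2 ± 16.4 in HT and 25.6 ± 18.4 in LT (1.30, adjusted p = 0.000644).

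LT was last compared with 2wk muscle, the stage before it, whose libraries were 15.7 to 23 M reads deep and whose mice were 10 weeks old. By limma 0 of 12573 genes were called (0%), with 931 (7.4%) at an unadjusted p under 0.05 and a smallest adjusted p of 0.0778. The count was 0 with voom, 2 with library weights and 12 with only these groups in the fit. Without LT mouse C56 or without 2wk mouse C27 it was 1. Nmrk2 averaged 387 ± 149 in LT and 633 ± 218 in 2wk (log2 fold change of LT minus 2wk -0.77, 95% interval -1.44 to -0.09), and Rnaset2b averaged 118 ± 41.1 in LT and 254 ± 45.2 in 2wk (-1.17, -1.66 to -0.68, adjusted p = 0.114). The Gbp5 difference was -0.69 (-1.43 to 0.05) and that of Irf1 -0.19 (-0.60 to 0.21). S100a8 averaged 43.2 ± 38.4 in LT and 12.6 ± 10.4 in 2wk (1.49, 0.40 to 2.58, adjusted p = 0.518).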

How the data were processed

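Libraries of polyadenylated RNA from the gastrocnemius of 40 mice (8 in each of 5 groups) came from a stranded kit with single-end reads. Alignment by the authors was with STAR 2.7.8a, and the submitters' processing notes list mm10 and mm39, of which mm39 matches the coordinates in the table. Reads were assigned to genes by expectation maximization in Partek Flow, and genes with few reads were removed. The deposited signal per gene and library is this estimated count divided by a DESeq2 size factor, so the authors had normalised it although the table is named as raw. Whole reads could not be recovered, so no count model was used. The deposited comparisons of the authors (p-values, fold changes, enriched terms) were not used.

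The fit of log2(value + 1) used limma 3.58.1 (R 4.3.3) with a mean trend, 5 groups in 1 fit and no covariate, and p-values were two-sided and Benjamini-Hochberg adjusted over 12573 genes. Each replicate was a separate mouse, grouped by its label. The depth of a library was taken from the step between its low values, which is the worth of 1 read. In LT and PBS libraries 81.6% to 89.4% of the low values lay within 0.1 read of a whole number. The script was tested on simulated data. Alternatives were a pseudocount of 5, a mean of at least 30, 2 groups in the fit, library weights, voom, quantile normalization, thinned libraries and each mouse left out. Figures and promoter searches used Python 3.11.15, pandas 2.3.3 and matplotlib 3.10.9.

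Members and gene lists were chosen with earlier results of these data known. The text names the 15 highest and 15 lowest called log2 fold changes with all 8 LT mice on 1 side of the PBS mean, called members of the 40 lists, up to 4 uncalled members of a described list with the highest level and other called genes of known role. 32 uncalled genes, Rnaset2a among them, were chosen after their values were seen. The uncalled genes without overlap that are named under the other observations were also chosen in that way and are not in this count. Ifngr2, Jak1 and Jak2, named as parts of the receptor pathway, are not in it either. Some called genes are counted but not reported here by name.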

Additional observations from a re-analysis of the deposited data

Results flagged for a closer look

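In 130 of the named genes the highest and the lowest of 8 mice were compared with their neighbours in each group. In 23 of 260 groups a mouse had a gap to the nearest other mouse of over 0.526 of the range. Gap and range were taken on log2(value + 1), while the values printed below are normalised counts. Chance gives about 1 such group in 20, and genes of a pathway do not vary independently. LT mouse C44 accounted for 15 of the 23. It was far above the other 7 LT mice in the called interferon genes Gbp4 (868 normalised counts, others at most 275), Igtp (848), Iigp1 (703), Tgtp1 (563), Gbp3 (402), Bst2 (361), Cd274 (295), Irf1 (273), Psmb8 (249) and Tap1 (197). The same held for genes of this response without a call, B2m (2380, others 974 to 1256), H2-K1 (2134), H2-Aa (1006), H2-Eb1 (639) and Irgm1 (546).

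3 such gaps fell on other LT mice, with Lcn2 at 3.12 in C57, Lrfn4 at 13.3 in C51 and Skp1 at 2788 in C43, each below the other LT mice. The remaining 5 fell on PBS mice. Mouse C4 had a high Apod level (678, others 301 to 423) and a low Stat3 level (459), C6 had low H2-D1 and H2-K1 levels (951 and 735), and C11 had the low Nmrk2 level (649, others 1274 to 2265).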

How the results depend on the processing

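The deposited values limit precision in LT, where 1 read is worth up to 3.37 normalised counts. The 80 called genes numbered 80, 80, 79, 68 and 93 with a pseudocount of 5, a mean of at least 30, only 2 groups in the fit, voom and quantile normalization. Of the 80, 51 were shared with the fit of 2 groups and 79 with the larger pseudocount. A weight for each library gave 288 (110 higher, 178 lower), which included all 80. Thinned libraries gave 51 called genes, 18 of them higher. Leaving out 1 mouse gave 44 to 144 called genes, with 15 to 62 higher and 29 to 82 lower. Of the 80, 33 kept their call in every planned setting (24 lower and 9 higher), and no called gene changed direction in any setting run.

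3 settings were chosen after seeing the data. With the 4 LT libraries of the most reads (C39, C42, C43 and C44) 28 genes were called, 7 of them lower, with the 4 of the fewest reads (C51, C53, C56 and C57) 152, 114 of them lower, and with C39, C42 and C43 alone 10 (2 higher, 8 lower). The cause was not tested. Between these settings uncalled genes changed sign, with the 4 deeper libraries B2m to 0.064, H2-D1 to 0.19 and H2-K1 to 0.16, with C39, C42 and C43 alone H2-D1 to 0.0085, and with the 4 shallower libraries C1qb to -0.11.

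HT against LT gave 524 called genes with 2 groups in the fit, 360 with library weights, 1596 after thinning, and 1486 to 3158 without 1 mouse. LT against 2wk gave 12, 2 and 2 in those fits and 0 to 1 without 1 mouse. No paired analysis was possible because no mouse number occurs in more than 1 group.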

Other observations

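20 genes did not overlap between the 8 LT and 8 PBS mice without passing the threshold, and are given as values chosen after they were seen. Among those higher in LT were Nfe2l2, the antioxidant factor NRF2 (log2 fold change 0.45, adjusted p = 0.249 in limma), Six4, a homeobox factor of muscle genes (0.41, adjusted p = 0.099), Sec62, a protein of the endoplasmic reticulum (0.33, 0.124), and Kif2a, a kinesin (0.33, 0.0735). Among those lower in LT were Hectd4 (-0.39, 0.0793), Trpm4, a cation channel (-0.34, 0.137), Tab1, an adaptor of the kinase TAK1 (-0.33, 0.221), and Rnf31, a subunit of the linear ubiquitin ligase (-0.38, 0.24).

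Some uncalled genes that were chosen after their values were seen lay above PBS, among them the cytokine receptor genes Csf2rb and Il4ra. Csf2rb, the shared chain of the receptors for interleukin 3 and GM-CSF, was at 23.8, 63.4 and 87.4 in LT (lowest, median and highest) and at 17.4, 26.6 and 35.5 in PBS (log2 fold change 1.10, adjusted p = 0.0775 in limma). Il4ra, a receptor chain of interleukin 4, averaged 156 ± 37.4 in LT and 100 ± 23.3 in PBS (0.63, adjusted p = 0.162). Chac1, a glutathione-degrading enzyme of the amino acid stress response, was at 216, 622 and 1125 in LT and at 126, 270 and 547 in PBS (1.04, adjusted p = 0.17). Cish, a feedback inhibitor of Stat5 signaling, averaged 199 ± 109 in LT and 120 ± 95.7 in PBS (0.90, adjusted p = 0.457).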
